A study of Mus musculus with 4 samples.

Results

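The genes described here are those of T lymphocytes: the T cell receptor complex, its coreceptors and signalling proteins, and surface, costimulatory and transcription factor genes of these cells. Of 39 listed genes, 36 had a probe set that the platform annotation assigns to exactly 1 gene, out of 22180 such genes on the array. Cd247, Lck and Tcf7 had none and were not analysed here. The list was drawn up for genes that stand high in wild-type replicate 1, so the excess in that array is what chose them and is given as a description without a test.

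Mammary epithelial cells gave the RNA, taken at 4 weeks of age from mice on a congenic FVB/NJ background, with 1 Affymetrix array per sample. Of the samples, 2 were from mice carrying MMTV-Cre and 2 from wild-type littermates. The transgene expresses Cre recombinase under the viral repeat of the mammary tumour virus of mice, which is active in mammary epithelium and can also be active in lymphoid cells. No other allele is named for either group. Tissue came from inguinal glands that the labels call lymph node-free, and stromal cells were removed by centrifugation after collagenase digestion. Samples of 1 genotype are described as biological replicates, and nothing says whether a sample holds 1 mouse or several. Values are log2 expression after RMA, a method that corrects background, equalises the arrays and summarises the probes. Levels of different genes are not compared, since probe sets differ in brightness, and the median probe set stood at 2.84.

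T lymphocytes recognise peptides through a receptor whose signal is carried by the CD3 chains. The coreceptors CD4 and CD8 bring a kinase to the engaged receptor, the kinase ZAP-70 is recruited to the CD3 chains, and adaptors such as LAT pass the signal on. In the mammary gland, T cells lie within and around the ducts, and an inguinal gland also holds a lymph node rich in naive T cells.

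Epithelial markers were high on every array. Krt8, a luminal keratin gene, stood between 10.30 and 10.40 and Krt14, a basal keratin gene, between 7.27 and 8.07. The mean over 13 luminal markers ran from 7.06 to 7.17. Fibroblast markers were measured on every array as well, with a mean over 9 genes from 7.10 to 7.64. For 6 adipocyte markers the mean ran from 3.91 to 4.30. How pure the epithelial cells were was not tested. Wild-type replicate 1 stood apart: 94 genes (0.424%) were higher there than on each of the other 3 arrays by 1 log2 unit or more. The same count gave 2 genes (0.00902%, 0 of the 36) for MMTV-Cre replicate 1, 3 (0.0135%, 0 of the 36) for MMTV-Cre replicate 2 and 2 (0.00902%, 0 of the 36) for wild-type replicate 2. T lymphocyte genes made up 21 of the 94, and 5 of the 10 genes with the largest excess. Because the list was chosen for this excess, the share is a description. In RNA from a whole sample, fewer T cells and less T cell RNA per cell cannot be told apart.

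**Figure D1:**
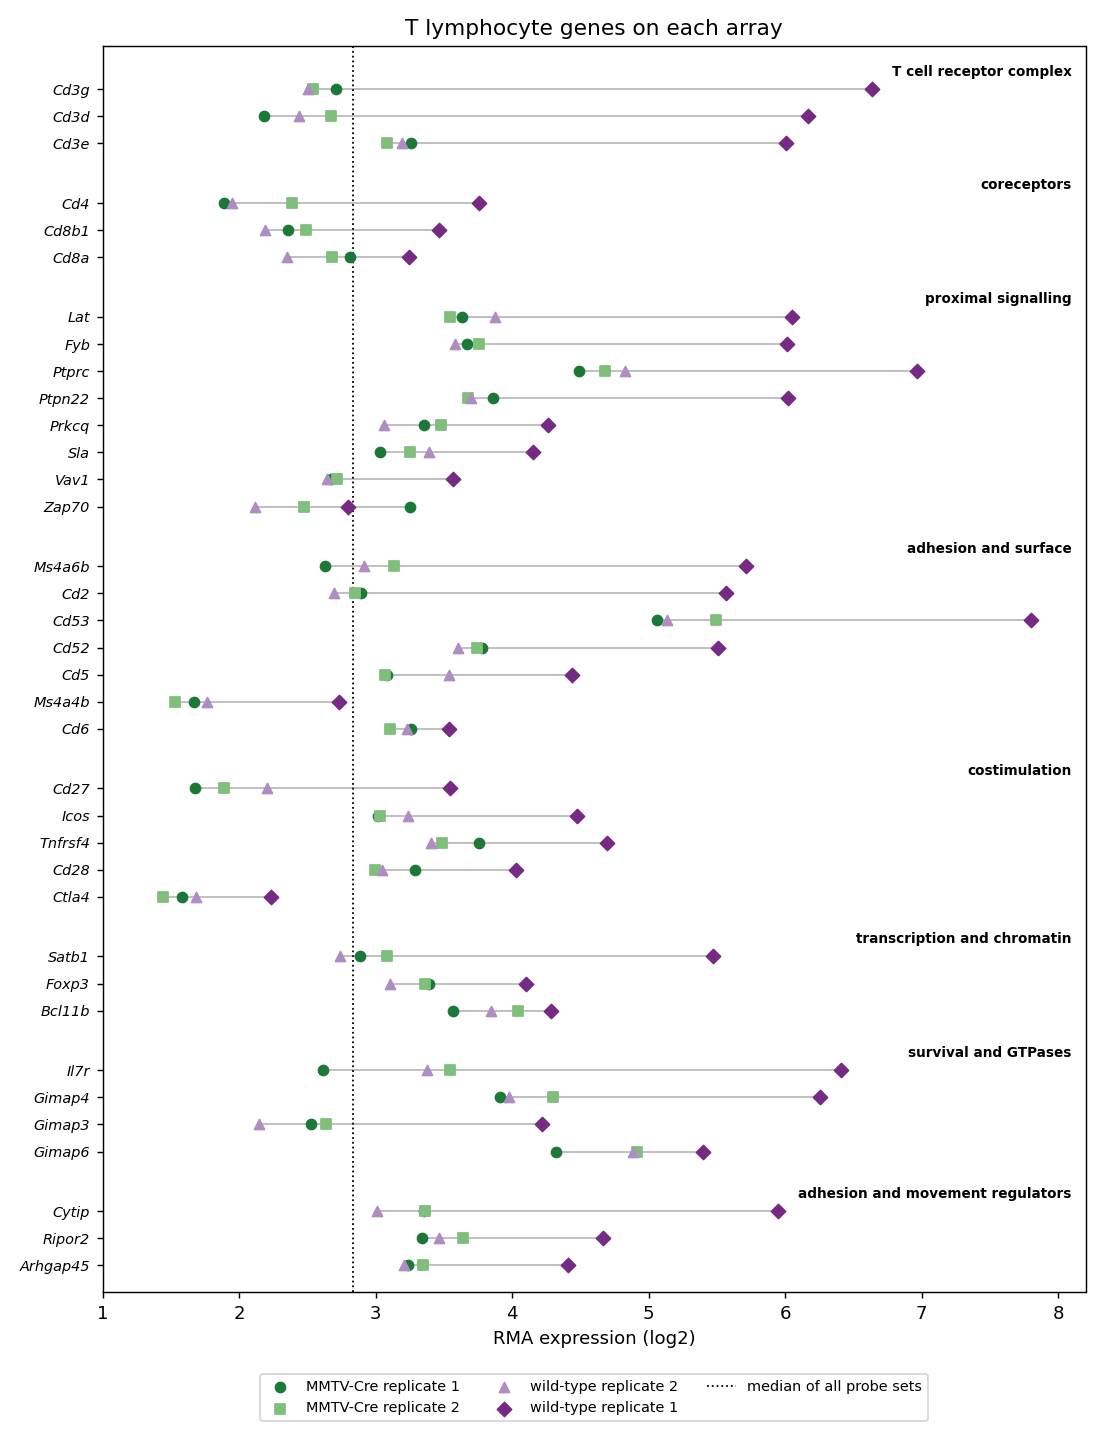
Each point is the log2 RMA level (horizontal axis) of 1 gene on 1 of the 4 arrays, with genes grouped by role and the median probe set marked by a dotted line. Wild-type replicate 1 is the highest array for 35 of 36 genes, and Zap70 is the exception.

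By median, the CD3 chain genes showed the largest excess of any role. Cd3g, which encodes the gamma chain, stood at 2.71 and 2.54 in the MMTV-Cre arrays, at 2.51 in wild-type replicate 2 and at 6.63 in wild-type replicate 1. The excess of wild-type replicate 1 over the mean of the other 3 arrays was 4.05 log2 units as measured, where those 3 arrays had an SD of 0.11. Cd3d, the delta chain gene, stood at 2.18 and 2.68 in MMTV-Cre, 2.44 in wild-type replicate 2 and 6.17 in wild-type replicate 1, an excess of 3.74 (SD of the other 3 arrays 0.25). Cd3e, the epsilon chain gene, stood at 3.26 and 3.08 in MMTV-Cre, 3.19 in wild-type replicate 2 and 6.00 in wild-type replicate 1, an excess of 2.83 (SD 0.09). Cd3g and Cd3d lay below the median probe set on all 3 other arrays, where differences are compressed and a level above background was not shown, so no fold is given for them.

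The 3 CD3 genes are neighbours on mouse chromosome 9 with no other protein-coding gene between them. In the RefSeq annotation of GRCm38.p6, Cd3g spans chr9:44969572-44980431, Cd3d chr9:44981769-44987052 and Cd3e chr9:44998735-45009663. Only 1337 bases separate Cd3g from Cd3d, and the starts of these divergent genes face each other across that gap. The sequences before their starts are shown because these genes moved together and had that excess, and that of Ms4a6b because it holds 1 of the ETS motif matches. They are from RefSeq (GRCm38.p6), 5′ to 3′ on the gene's own strand, and capitals mark matches to the motifs searched.
Cd3g (chr9:44980432-44980681, minus strand): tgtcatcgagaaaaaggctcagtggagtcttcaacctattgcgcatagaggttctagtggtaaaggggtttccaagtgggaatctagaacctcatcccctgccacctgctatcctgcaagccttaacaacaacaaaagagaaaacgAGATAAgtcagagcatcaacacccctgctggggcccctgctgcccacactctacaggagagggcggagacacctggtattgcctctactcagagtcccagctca
Cd3d (chr9:44981536-44981768, plus strand): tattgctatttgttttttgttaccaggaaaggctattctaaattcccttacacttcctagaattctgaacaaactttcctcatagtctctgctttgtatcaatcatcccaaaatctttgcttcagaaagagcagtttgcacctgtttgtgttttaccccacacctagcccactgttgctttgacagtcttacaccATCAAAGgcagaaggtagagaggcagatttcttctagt
Cd3e (chr9:45009664-45009861, minus strand): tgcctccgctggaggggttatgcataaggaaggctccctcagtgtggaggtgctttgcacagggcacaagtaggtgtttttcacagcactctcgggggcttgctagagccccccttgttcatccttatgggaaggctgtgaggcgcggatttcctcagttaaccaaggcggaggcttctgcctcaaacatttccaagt
Ms4a6b (chr19:11518309-11518558, plus strand): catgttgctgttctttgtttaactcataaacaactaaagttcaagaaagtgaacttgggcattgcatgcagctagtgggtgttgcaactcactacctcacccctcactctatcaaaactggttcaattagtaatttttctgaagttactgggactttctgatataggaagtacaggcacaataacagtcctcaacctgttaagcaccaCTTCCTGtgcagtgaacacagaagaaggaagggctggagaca
The capitals are a GATA match in Cd3g, a TCF and LEF match in Cd3d and an ETS match in Ms4a6b, while the stretch of Cd3e shown holds no match. Cd3e has an ETS match closer to its start, within the annotated gene. Matches were sought on both strands in the 250 bases before 1 start per gene, which 28 of the 36 genes had in the table. CAGGAAG (ETS) was present in 6 of 28 (21.4%) against 10.5% of 27025 genes with a promoter in the table. TGTGGT (RUNX) was present in 10.7% against 14.2%, AGATAA, the letters searched for GATA factors, in 7.14% against 10.3%, and CTTTGAT (TCF and LEF) in 3.57% against 3.23%. CAGCTG (E proteins) was in 0 of 28 against 12.8%. GC content before the start had a median of 46.2% in these genes and 52.0% in all. A match is a description of letters and not a binding site.

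Coreceptor genes had smaller excesses. Cd4, the coreceptor for class II molecules and also present in some myeloid cells, stood at 1.89 and 2.39 in MMTV-Cre, 1.95 in wild-type replicate 2 and 3.76 in wild-type replicate 1. Cd8b1 and Cd8a encode the 2 chains of the coreceptor for class I molecules. Cd8b1 stood at 2.36 and 2.49 in MMTV-Cre, 2.19 in wild-type replicate 2 and 3.46 in wild-type replicate 1. Cd8a stood at 2.81 and 2.68 in MMTV-Cre, 2.35 in wild-type replicate 2 and 3.25 in wild-type replicate 1. The excess was 1.68 for Cd4, 1.12 for Cd8b1 and 0.63 for Cd8a. All 3 genes lay below the median probe set on the 3 other arrays, so transcripts of both coreceptors were dim outside wild-type replicate 1.

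Proximal signalling genes divided into 4 with an excess above 2 log2 units and 4 below 1. Lat, the membrane adaptor phosphorylated by ZAP-70, stood at 3.64 and 3.54 in MMTV-Cre, 3.88 in wild-type replicate 2 and 6.05 in wild-type replicate 1. Ptprc encodes CD45, a phosphatase on all white blood cells that regulates the kinases of the receptor. It stood at 4.49 and 4.68 in MMTV-Cre, 4.82 in wild-type replicate 2 and 6.96 in wild-type replicate 1. The adaptor gene Fyb, which links the receptor to integrins, and the phosphatase gene Ptpn22, a brake on receptor signalling, reached 6.01 and 6.02 in wild-type replicate 1. Fyb lay between 3.58 and 3.76 on the other arrays and Ptpn22 between 3.67 and 3.86. The excesses of the 4 genes ran from 2.27 for Ptpn22 to 2.37 for Lat. Prkcq, a kinase gene downstream of the receptor and CD28, had an excess of 0.96, the adaptor gene Sla 0.93 and the exchange factor gene Vav1 0.89. Vav1 was at 2.64 to 2.71 on the other arrays and 3.56 in wild-type replicate 1.

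Zap70 did not share the pattern. The gene, whose kinase binds the phosphorylated CD3 chains, was highest in MMTV-Cre replicate 1 at 3.25, followed by wild-type replicate 1 at 2.80, MMTV-Cre replicate 2 at 2.48 and wild-type replicate 2 at 2.11. Its excess in wild-type replicate 1 was 0.18, under the SD of 0.58 over the other 3 arrays, the widest such SD among the 36 genes. It is the only 1 of the 36 for which wild-type replicate 1 was not the highest array, and no second probe set was there to set against it.

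Among surface genes, Cd53, a tetraspanin gene of several kinds of white blood cell, stood at 5.06 and 5.49 in MMTV-Cre, 5.13 in wild-type replicate 2 and 7.80 in wild-type replicate 1. Cd2, an adhesion receptor of T cells and other white blood cells, stood at 2.89 and 2.85 in MMTV-Cre, 2.69 in wild-type replicate 2 and 5.57 in wild-type replicate 1. Ms4a6b, a membrane protein gene of several leukocytes, stood at 2.63 and 3.14 in MMTV-Cre, 2.91 in wild-type replicate 2 and 5.71 in wild-type replicate 1. The 3 other arrays spanned 0.43 log2 units for Cd53, 0.20 for Cd2 and 0.51 for Ms4a6b, and wild-type replicate 1 lay above them with excesses of 2.57, 2.76 and 2.82. Cd52, a small surface glycoprotein gene, stood at 5.51 against 3.60 to 3.78 on the other arrays. Ms4a4b, of the same family as Ms4a6b, reached only 2.73 against 1.53 to 1.76, below the median probe set on every array.

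Cd5 and Cd6 encode related receptors that dampen T cell signalling and lie on chromosome 19 with no coding gene between them, but their excesses differed. Cd5 stood at 3.09 and 3.07 in MMTV-Cre, 3.53 in wild-type replicate 2 and 4.44 in wild-type replicate 1, an excess of 1.21. Cd6 stood at 3.26 and 3.10 in MMTV-Cre, 3.23 in wild-type replicate 2 and 3.54 in wild-type replicate 1, an excess of 0.34. Other neighbours with no coding gene between them ranged from like to unlike values. Cd28 and Ctla4 had excesses of 0.91 and 0.66, Ctla4 and Icos 0.66 and 1.38, and Cd8b1 and Cd8a 1.12 and 0.63. Gimap4 and Gimap6, separated by 9520 bases on chromosome 6, had excesses of 2.20 and 0.69.

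Costimulatory genes had excesses between 0.66 and 1.62, all with wild-type replicate 1 on top. Cd27, a receptor of naive and memory T cells and of some B cells, stood at 1.68 and 1.89 in MMTV-Cre, 2.21 in wild-type replicate 2 and 3.54 in wild-type replicate 1. Icos, a costimulator induced on activated T cells, stood at 3.02 and 3.03 in MMTV-Cre, 3.23 in wild-type replicate 2 and 4.47 in wild-type replicate 1. Tnfrsf4, which encodes OX40, reached 4.69 against at most 3.75. Cd28, the main costimulator of naive cells, reached 4.02 against at most 3.29. Ctla4, which opposes CD28, reached 2.23 against at most 1.68 and lay below the median probe set on all 4 arrays.

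Transcription and chromatin genes were split. Satb1, a chromatin organiser of thymocytes and T cells, stood at 2.89 and 3.08 in MMTV-Cre, 2.74 in wild-type replicate 2 and 5.47 in wild-type replicate 1, an excess of 2.57. Foxp3, the factor of regulatory T cells, stood at 3.39 and 3.36 in MMTV-Cre, 3.11 in wild-type replicate 2 and 4.10 in wild-type replicate 1, an excess of 0.81. Bcl11b, a T lineage commitment factor also expressed in epithelia, was at 3.57 and 4.05 in MMTV-Cre, 3.85 in wild-type replicate 2 and 4.29 in wild-type replicate 1. Its excess of 0.47 was below the 0.48 that separated the highest from the lowest of the other arrays.

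Il7r, the receptor chain for the survival factor interleukin-7, stood at 2.62 and 3.54 in MMTV-Cre, 3.38 in wild-type replicate 2 and 6.41 in wild-type replicate 1. Its excess of 3.23 was the third of the 36, and MMTV-Cre replicate 1 lay below the other low arrays (SD of the 3 arrays 0.49). Gimap genes encode GTPases of lymphocytes. Gimap4 stood at 3.91 and 4.30 in MMTV-Cre, 3.98 in wild-type replicate 2 and 6.26 in wild-type replicate 1, and Gimap3 reached 4.22 against at most 2.64. Among regulators of adhesion and movement, Cytip, which controls integrin adhesion, stood at 3.35 and 3.36 in MMTV-Cre, 3.01 in wild-type replicate 2 and 5.95 in wild-type replicate 1. Ripor2 and Arhgap45, the other genes of this role, had excesses of 1.18 and 1.15.

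**Figure D2:**
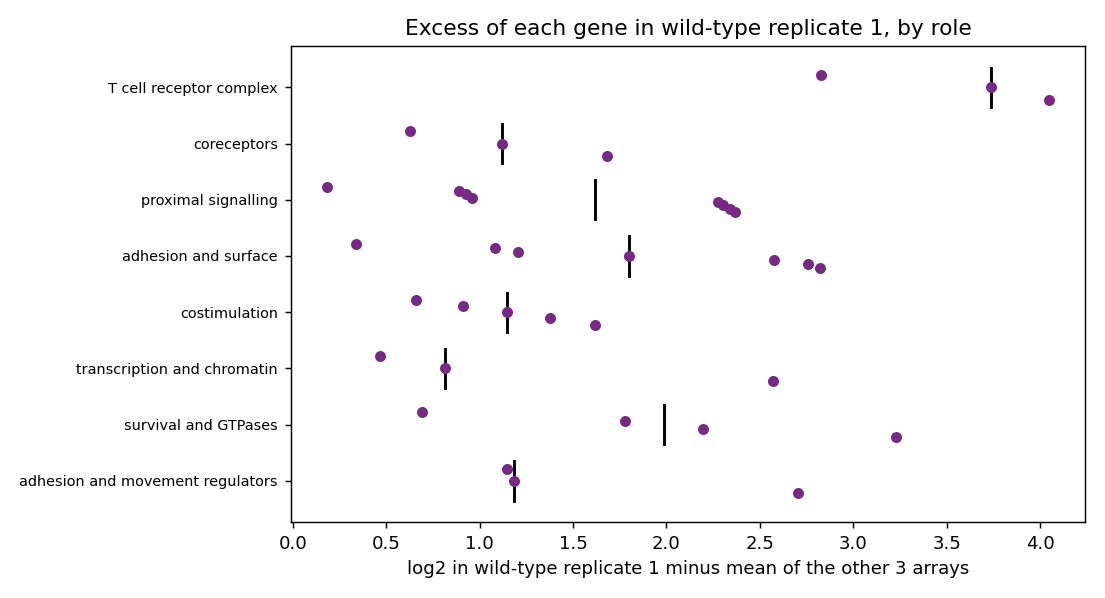
Each point is 1 gene, placed by its log2 level in wild-type replicate 1 minus the mean of the other 3 arrays, with a bar at the median of each role. The T cell receptor complex has a median of 3.74, and transcription and chromatin genes have the lowest, 0.81.

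Over all 36 genes the median excess in wild-type replicate 1 was 1.50 log2 units, against −0.012 over all genes. The median level was 4.57 in that array and between 3.12 and 3.24 in the others. The line of 1 log2 unit over the next array was passed by 21 of 36 genes (58.3%), where 0.424% of all genes met the same rule. The closest inside that line was Ripor2, 1.02 above its next array, and the closest outside was Cd8b1 at 0.98. The count was 13 genes at 2 log2 units (0.108% of all genes) and 31 at 0.5 (1.37% of all genes). The 11 genes known mainly from T cells, or T and NK cells, had a median excess of 1.12, and the 12 shared by several kinds of leukocyte had 2.04. Below the median probe set on all 3 other arrays lay 5 of the 11 and 1 of the 12. Differences are compressed there, so the 2 medians are not set against each other. As a gauge of dim probe sets, 0 of 1390 olfactory and vomeronasal receptor genes stood 1 log2 unit above the rest in wild-type replicate 1, and their median excess was 0.0031. By their mean over the 4 arrays, 29 of the 36 genes lay at or above the median probe set and 7 below it.

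Other genes of T cell receptor signalling, from a separate list of 31, were measured for 29. Their median excess was 0.33, and wild-type replicate 1 was the highest array for 22 of 29 (23.3% of all genes). Of the 29, 4 stood at least 1 log2 unit above the rest (0.424% of all genes). Those were the adaptor genes Grap2, Skap1 and Sh2d2a and the kinase gene Txk. Grap2 stood at 2.19 and 1.77 in MMTV-Cre, 2.44 in wild-type replicate 2 and 4.56 in wild-type replicate 1. Txk reached 4.52 against at most 2.75. The lowest excess among the 29 was −0.22, and Plcg1, which encodes a phospholipase, had 0.22. T cell receptor chain genes had no probe set with 1 symbol and were not analysed here.

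Lists for T cell states differed in size. For 15 naive T cell and homing genes the median excess was 0.52, with a range from −0.17 to 2.75. Wild-type replicate 1 was the highest array for 12 of them, where it was for 23.3% of all genes. Lef1, a factor of naive T cells, stood at 1.90 and 2.25 in MMTV-Cre, 2.11 in wild-type replicate 2 and 4.84 in wild-type replicate 1. Ccr7, the receptor that guides naive T cells into lymph nodes, stood at 4.12 and 4.71 in MMTV-Cre, 4.52 in wild-type replicate 2 and 5.90 in wild-type replicate 1. Selplg, a selectin ligand gene, reached 4.38 against at most 2.75, and Gpr183, a receptor for oxysterols, 3.66 against at most 3.03. For 10 genes of tissue-resident cells and of homing to inflamed sites the median excess was 0.34. The early activation gene Cd69 reached 3.81 against at most 2.01 and Rgs1, a regulator of chemokine receptor signals, 5.85 against at most 4.71, while Itgae stood at 2.10 against 1.65 to 2.22. Of 16 effector genes, 0 stood 1 log2 unit above the rest, where 0.424% of all genes did, so that count tells nothing of them. Their median excess was 0.18. The cytotoxic granule genes Gzmb and Prf1 stood at 3.34 and 3.85 in wild-type replicate 1, against at most 3.25 and 3.54. Ccl5, an effector chemokine gene, had the largest effector excess, 0.95, with 8.24 against 7.19 to 7.45. Regulatory and inhibitory genes had a median excess of 0.22 over 12 genes, from −0.41 for Lag3 to 1.14 for Ikzf2 and 1.24 for Tnfrsf9. Wild-type replicate 1 was the highest array for 6 of the 12 (23.3% of all genes). Immature thymocyte genes had a median of −0.11 over 5, with Rag2 and Dntt at 1.62 or less on every array. These medians were not tested against each other.

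**Figure D3:**
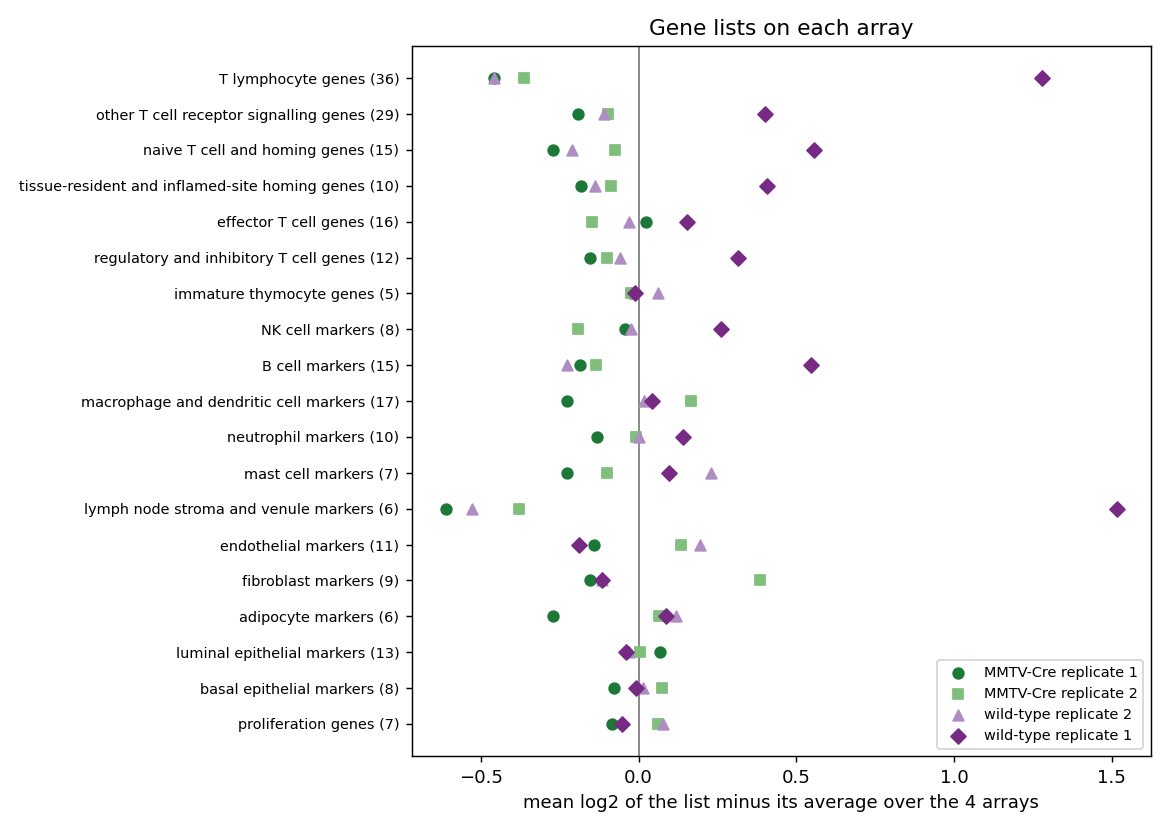
Points show, for each list with at least 5 measured genes (number in brackets), the mean log2 level on each array minus the list's average over the 4 arrays. Wild-type replicate 1 lies to the right for the T lymphocyte, B cell and lymph node lists. It is also the rightmost array for others, among them the NK cell, neutrophil and effector T cell lists. The mean of the luminal list stays between 7.06 and 7.17.

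Markers of other cell types moved with the T lymphocyte genes in wild-type replicate 1. Lymph node stroma and venule markers were measured for 6 of 8, and their mean level was 4.80 in wild-type replicate 1, 2.75 in wild-type replicate 2 and 2.67 and 2.90 in MMTV-Cre. Glycam1, a secreted product of lymph node venules and also of milk-producing epithelium, was 7.41 log2 units in excess and Cxcl13, made by follicle stroma, 3.06. Ubd, a gene induced by inflammatory signals, was 1.07 in excess, and the other 3 of the list, Madcam1, Chst4 and Fut7, between 0.12 and 0.27. B cell markers (15 of 19 measured) had a mean of 3.35 in wild-type replicate 1 and 2.57 in wild-type replicate 2. In MMTV-Cre the means were 2.62 and 2.67. Against 23.3% of all genes, wild-type replicate 1 was highest for 14 of the 15 markers. Their median excess was 0.60, and Ighm, the heavy chain gene of IgM, had by far the largest, 3.73, at 7.36 against 3.43 to 3.80. Cd79a, a B cell receptor component, followed with 1.33, and Ms4a1, which encodes CD20, had 0.63. NK cell markers (8 of 11) averaged 2.52 there and 2.07 to 2.24 elsewhere, and 1 of them stood 1 log2 unit above the rest (0.424% of all genes). That was Klrd1, which encodes CD94 and is also expressed in some T cells, at 4.23 in wild-type replicate 1 against 2.27 to 3.15. Klrb1b had an excess of 0.77, Klrk1 of 0.55 and Klrc1 of 0.18. The defining gene Ncr1 lay at 2.13 to 2.34 and Klrb1c at 2.44 to 2.67, below the median probe set on all arrays. Neutrophil markers (10) averaged 2.95 in wild-type replicate 1 and 2.68 to 2.81 elsewhere, and that array was highest for 4 of 10 (23.3% of all genes). The largest excess among them was that of S100a9, 1.48. Means over 17 macrophage and dendritic cell markers (3.85 against 3.58 to 3.97) and 11 endothelial markers (4.86 against 4.91 to 5.24) were not raised in that array. Among the 17, Lyz2 had the largest excess, 0.91, and that array was highest for 4. Whether lymph node tissue was part of the result was not tested, and these values are given beside it.

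The design asks whether cells of MMTV-Cre glands differ from wild-type. None of the 36 T lymphocyte genes passed limma at an adjusted p under 0.05 over all 22180 genes, where 0.0% of genes did (smallest adjusted p of the 36, 0.963). At an unadjusted p under 0.05 by limma there were 2 of 36, Cd5 and Cd27, where 4.56% of all genes were. With wild-type subtracted from MMTV-Cre, the log2 difference of Cd5 was −0.91 (95% interval −1.63 to −0.19) and that of Cd27 −1.09 (−2.13 to −0.058). For Cd3g it was −1.95 with an interval of −5.00 to 1.11, and the wild-type arrays differed from each other by more than the groups. The median difference was −0.76 over the 36 genes and −0.0017 over all genes, and 35 of 36 lay below 0, where 50.4% of all genes did. Both MMTV-Cre arrays lay below both wild-type arrays for 8 of 36 genes (22.2%), where 16.3% of all genes did, and above them for 0 of 36, where 16.6% of all genes did. This contrast contains the array the genes were chosen for, so nothing is read from those counts. An exact permutation test, two-sided, of 2 arrays against 2 cannot give a p under 0.333.

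**Figure D4:**
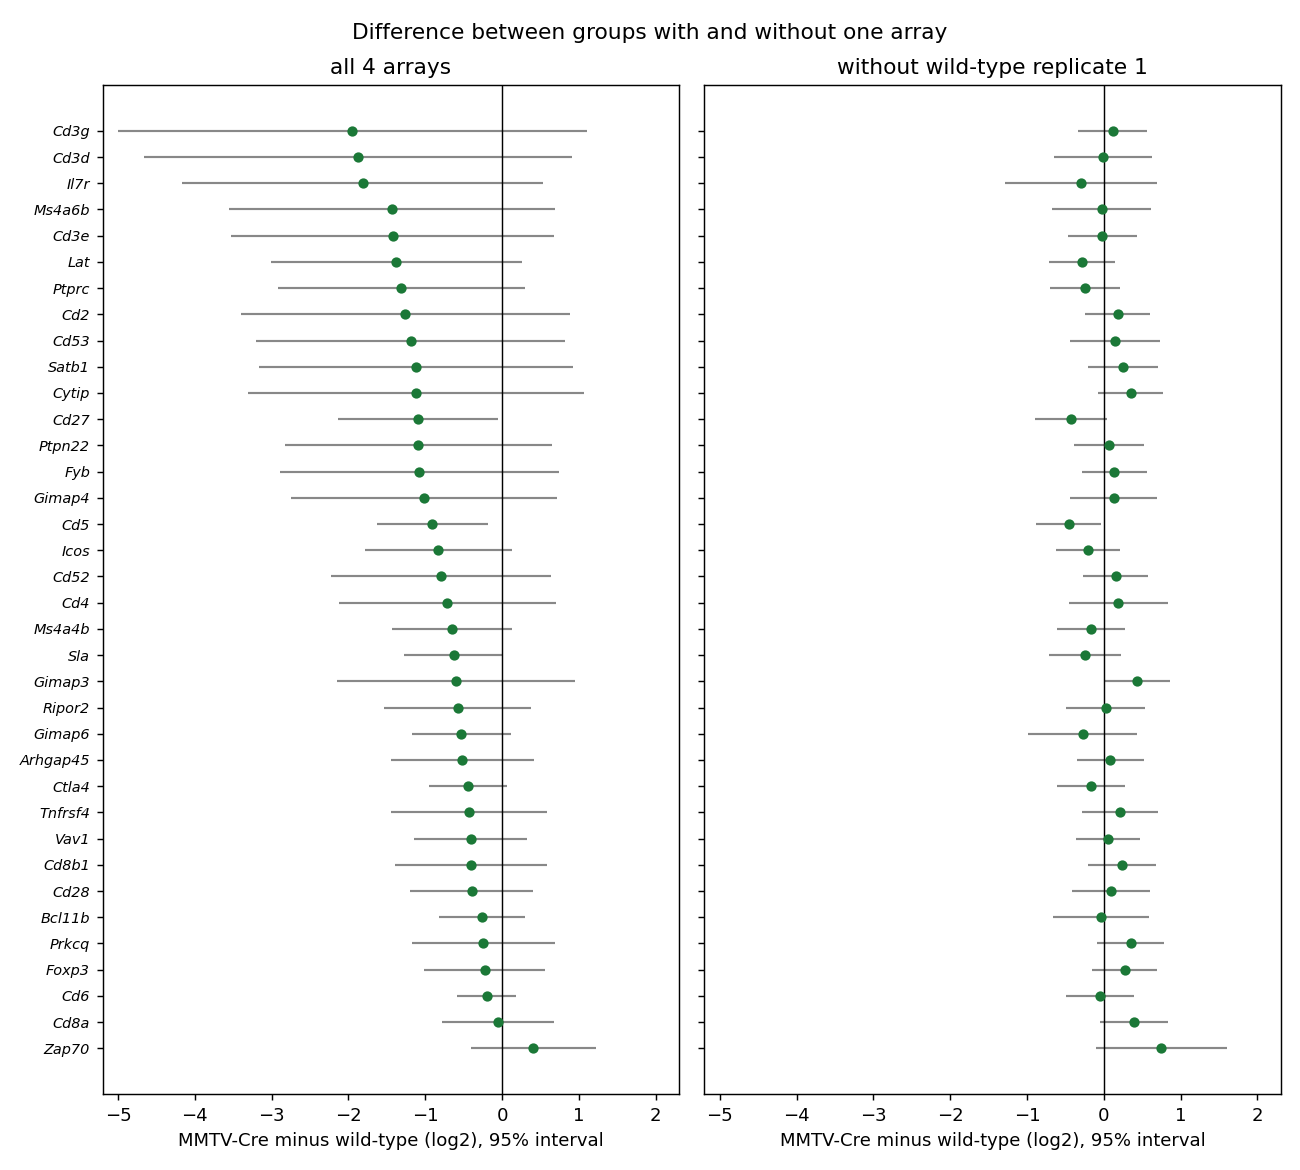
Points are limma log2 differences, MMTV-Cre minus wild-type, with 95% intervals for each of the 36 genes, from all 4 arrays (left) and without wild-type replicate 1 (right). On the left 35 of 36 points lie below 0, and on the right 21 of 36 lie above 0.

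Without wild-type replicate 1, the 2 MMTV-Cre arrays were set against wild-type replicate 2, which was taken to vary as they do. The median difference of the 36 genes was then 0.077, near the SD of 0.065 between their medians on these 3 arrays. Of the 36, 21 (58.3%) lay above 0, where 49.0% of all genes did. Of the olfactory and vomeronasal receptor genes, the gauge of dim probe sets, 57.7% did. By limma 0 of 36 passed at an adjusted p under 0.05 (0.0% of all genes), and 2 of 36 had an unadjusted p under 0.05, where 3.35% of all genes did. These were Cd5, with a log2 difference of −0.46 (95% interval −0.88 to −0.037), and Gimap3, with 0.43 (7.2e-05 to 0.87). Cd3g then differed by 0.12 (−0.33 to 0.57), Cd3e by −0.019 (−0.47 to 0.43) and Ptprc by −0.24 (−0.70 to 0.22).

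Without wild-type replicate 2, wild-type replicate 1 alone stood for its group, and the spread came from the MMTV-Cre arrays only. The median difference of the 36 genes was then −1.53, and 4 of 36 (Cd3g, Cd3e, Cd2 and Cytip) passed by limma, where 0.0316% of all genes (7 in all) did. The genes were listed for their height in that same array, so this outcome follows from the choice of genes, and nothing is read from it. With all 4 arrays their adjusted p by limma was 0.963 to 0.969, and with either MMTV-Cre array left out 0 of the 36 passed.

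Among the 3 other arrays, the median range of the T lymphocyte genes was 0.34 log2 units, against 0.26 for all genes. MMTV-Cre replicate 2 was the highest of the 3 for 17 genes, MMTV-Cre replicate 1 for 11 and wild-type replicate 2 for 8. Wild-type replicate 2 was the lowest for 15 of 36 (41.7%), where 31.0% of all genes had it lowest. Below the median probe set on all 3 of them lay 10 genes, among them Cd3g, Cd3d and the coreceptors.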

How the data were processed

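Transcripts were measured on 4 arrays, 2 of MMTV-Cre and 2 of wild-type mammary epithelial cells, each from 50 ng of total RNA. The authors deposited 1 log2 value per probe set and array, computed with oligo and RMA per the submitters' processing notes. Tool versions and annotation: not given in the sources used here. That the scale is log2 follows from the values, whose array medians lay between 2.83 and 2.86. RMA equalises the arrays, so a shift common to most transcripts cannot be seen.

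Of 41345 probe sets, 23521 had 1 symbol in the platform annotation, 1814 several and 16010 none named here. A gene was represented by its probe set with the highest mean, and dim genes were kept. All 36 T lymphocyte genes with a value had a single such probe set. A further probe set naming Foxp3 together with other genes was not used. Excess is the log2 level in wild-type replicate 1 minus the mean of the other 3 arrays. MMTV-Cre and wild-type were compared by limma 3.58.1 under R 4.3.3 (lmFit, eBayes, two-sided, Benjamini-Hochberg over all genes). The fit was also run on simulated data. Their spread came from the 3 arrays other than wild-type replicate 1, so that run does not cover the wide spread of the wild-type arrays. Arrays limit the precision by their number. Each p-value weighs a group difference against the spread between arrays within a group, estimated with help from all genes.

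The genes, the lists, the tests and the alternatives were chosen with earlier results of these data known. All listed genes with a value were named, and from other lists up to 4 genes by largest excess, plus the first 2 measured of a marker list where a result turned on them. Chst4 and Fut7 were named after their values were seen. Sequences, coordinates and gene order are from RefSeq tables of GRCm38.p6. All 36 genes were matched there by Entrez identifier.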

Additional observations from a re-analysis of the deposited data

How the results depend on the processing

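The count of T lymphocyte genes past the limma threshold in MMTV-Cre against wild-type was 0 with the filter on dim genes, the mean of probe sets, median centring, quantile normalization, a variance trend and robust variance, and 2 at an unadjusted p under 0.05. Leaving out 1 array each gave 0 to 4, the 4 without wild-type replicate 2, where the array the genes were chosen for stood alone for its group. The median difference of −0.76 ran from −1.53 without wild-type replicate 2 to 0.0774 without wild-type replicate 1. The latter is near the SD of 0.065 between the medians of the 3 arrays, so no direction is read from it. In the alternatives with all 4 arrays the median difference stayed between −0.91 and −0.74. With the replicate block the count was 0 and the median −0.76. By limma, 7 of the 36 genes then had an unadjusted p under 0.05 (4.19% of all genes) in place of 2. That fit contains the array the genes were chosen for, so nothing is read from the 7. The deviations of same-numbered arrays correlated at −0.020 over all genes and at −0.25 over the 36. Neither was positive, and the numbers were not taken as pairs. The median excess of 1.50 became 1.80 with the filter on dim genes, which keeps 29 of the 36 by their mean over all 4 arrays. Wild-type replicate 1 counts in that mean, and Cd3g, Cd3d, Cd2, Gimap3 and Vav1 passed only through it. Nothing is therefore read from that rise. Over the highest of the other 3 arrays the median excess was 1.29. Leaving out 1 of the other 3 arrays each moved the median excess of 1.50 to between 1.42 and 1.53. The 21 genes at least 1 log2 unit above the rest became 13 at 2 log2 units, and 22 to 23 without 1 array each. Without wild-type replicate 1, the count past the threshold was 0 in every alternative run with adjusted p and 2 at an unadjusted p under 0.05, and the median of 0.077 ran from 0.069 to 0.092. Many of these genes lie near the dim end outside wild-type replicate 1, which limits how large an excess can appear.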

Other observations

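Genes outside every list also stood high in wild-type replicate 1. The 8 with the largest excess among named protein-coding genes were Stat4, Camk4, P2ry10, Tnfrsf26, H2-DMb2, Ikzf1, Gpr18 and Dock2, with excesses from 2.50 down to 2.03 log2 units. Stat4, a transducer of interleukin-12 signals in T and NK cells, stood at 2.45 and 2.20 in MMTV-Cre, 1.99 in wild-type replicate 2 and 4.71 in wild-type replicate 1. Camk4, a calcium-dependent kinase gene active in T cells, stood at 2.61 and 2.98 in MMTV-Cre, 3.16 in wild-type replicate 2 and 5.32 in wild-type replicate 1. Ikzf1 encodes Ikaros, a lymphoid transcription factor, and reached 5.20 against at most 3.23. Dock2, which drives lymphocyte migration, reached 4.62 against at most 2.87. H2-DMb2 belongs to the class II loading machinery of antigen-presenting cells and reached 3.86 against at most 1.65.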
